A study of Caenorhabditis elegans with 10 samples.

Results

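PQM-1 and CEH-60, each recovered from animals that lack the other, are compared here by their ChIP-seq peaks. ChIP-seq (chromatin immunoprecipitation followed by sequencing) recovers the DNA that a protein is crosslinked to. All nuclear peaks of 2 lists were taken, 5020 of PQM-1 in the strain DLS422 and 2048 of CEH-60 in the strain DLS435. They make up 7068 of the 40978 nuclear peaks in the 8 lists of the series. A peak was called shared where its interval overlapped a peak of the other list by 1 bp or more. Peaks fall accordingly into PQM-1 only, both, and CEH-60 only.

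DLS422 has the genotype ceh-60(ok1485); wgIs201, and PQM-1 was pulled down from it with the anti-FLAG antibody M2. DLS435 has the genotype pqm-1(ok485); ceh-60(rhd116), and CEH-60 was pulled down from it with the anti-HA antibody 3F10. The intact counterparts are PQM-1 in OP201 (unc-119(tm4063); wgIs201, antibody M2) and CEH-60 in DLS395 (ceh-60(rhd116), antibody 3F10, replicate 2). These 4 libraries came from whole day 1 adults, crosslinked in 1% formaldehyde over 5 min. The other 4 lists, also from day 1 adults, all came from 2% formaldehyde over 30 min. They are CEH-60 in DLS395 with 3F10 (replicate 1) and with mIgG1, and CEH-60 and UNC-62 (antibody 3E6) in DLS396 (ceh-60(rhd116); gaIs285). PQM-1 was thus seen through a transgene and CEH-60 through an allele of its own gene, and the extents of the 2 deletions were not used here. Factor, strain, tag and antibody change together between the lists of DLS422 and DLS435 and cannot be told apart. There is 1 library a side, so no difference here could be set against replicate error, and there are no p-values. Chromatin of whole animals does not show which cells a peak came from, and a shared peak does not place both proteins in the same cell.

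CEH-60 belongs to the PBX family of homeodomain factors, acts in the adult intestine, where yolk proteins are made, and partners with UNC-62, a MEIS factor. PQM-1 is a zinc finger protein, also of the intestine. It is known for its part in the insulin and DAF-16 stress response and for binding near genes with a GATA-like promoter element. The adult hermaphrodite intestine makes vitellogenins for the oocytes, stores fat, digests bacteria and defends against pathogens.

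The labels could be checked in part at the tagged and deleted genes. In DLS422, 2 peaks lay over pqm-1, the gene that wgIs201 carries, and covered 97% of it. Their longest ran over 6040 bp (II 11150718 to 11156757). DLS422 had 0 peaks over ceh-60, the gene deleted there, against 2 in OP201, and its nearest peak lay 113 bp away. DLS435 had 0 peaks within 20 kb of pqm-1, and neither had CEH-60 replicate 2 in intact animals, so that label could not be checked. Coordinates are 1-based as deposited, and their genome build is not stated by any source used here. The fold given for a peak is the authors' own enrichment of its summit over local background, used only within a list. Folds of different lists are set side by side, not compared.

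Most CEH-60 peaks found without pqm-1 lay at sites that also had PQM-1 without ceh-60, and most PQM-1 peaks lay elsewhere. Of the PQM-1 peaks in DLS422, 1562 of 5020 overlapped a CEH-60 peak of DLS435, which is 31.1% (95% Wilson interval 29.8 to 32.4%). Of the CEH-60 peaks in DLS435, 1699 of 2048 overlapped a PQM-1 peak of DLS422, which is 83% (81.3 to 84.5%). Left unshared were 3458 PQM-1 peaks and 349 CEH-60 peaks. Merged, the lists gave 5336 sites, of which 3458 (64.8%) had PQM-1 only, 1529 (28.7%) had both and 349 (6.54%) had CEH-60 only. The lists differ in extent, with 2.25 Mb covered by PQM-1 peaks and 0.715 Mb by CEH-60 peaks. The Wilson intervals cover counting error only, and read depth is unknown.

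Sharing rose with peak strength throughout the PQM-1 list, and in the CEH-60 list mainly from the weakest quartile to the next. From the weakest to the strongest fold quartile, 12.2%, 17.9%, 32.6% and 61.8% of PQM-1 peaks were shared. The matching shares of CEH-60 peaks were 76.8%, 84.1%, 84.3% and 86.6%. From quartile 2 on, the Wilson intervals of the CEH-60 shares overlapped (80.6 to 87.0% in quartile 2, 83.4 to 89.3% in quartile 4). The PQM-1 quartiles were set against 2048 CEH-60 peaks and the CEH-60 quartiles against 5020 PQM-1 peaks, so the 2 rises are not on 1 scale. Shared PQM-1 peaks were also wider than unshared ones (median 519.5 against 284 bp), and the part of width in the 1 bp rule was not tested. Among the 100 strongest peaks, 97 of PQM-1 and 88 of CEH-60 were shared. Among the 500 strongest, 389 of PQM-1 (77.8%) and 435 of CEH-60 (87%) were. Nearly every leading PQM-1 peak therefore had a CEH-60 peak, while 12 of the 100 leading CEH-60 peaks had no PQM-1 peak. Demanding that the overlap span 50% of both peaks lowered the shared share to 17.6% for PQM-1 and 43.1% for CEH-60. Taking the 1500 strongest peaks of each list gave 49.6% for PQM-1 and 55.3% for CEH-60, so how far the shares differ depends on list length. Some unshared peaks were near misses. Of the 3458 unshared PQM-1 peaks, 367 (10.6%) lay within 500 bp of a CEH-60 peak. Of the 349 unshared CEH-60 peaks, 63 (18.1%) lay within 500 bp of a PQM-1 peak. With the partner gene intact, CEH-60 replicate 2 overlapped 2697 of 6001 PQM-1 peaks in OP201 (44.9%), and PQM-1 in OP201 overlapped 2878 of 3430 peaks of CEH-60 replicate 2 (83.9%).

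**Figure D1:**
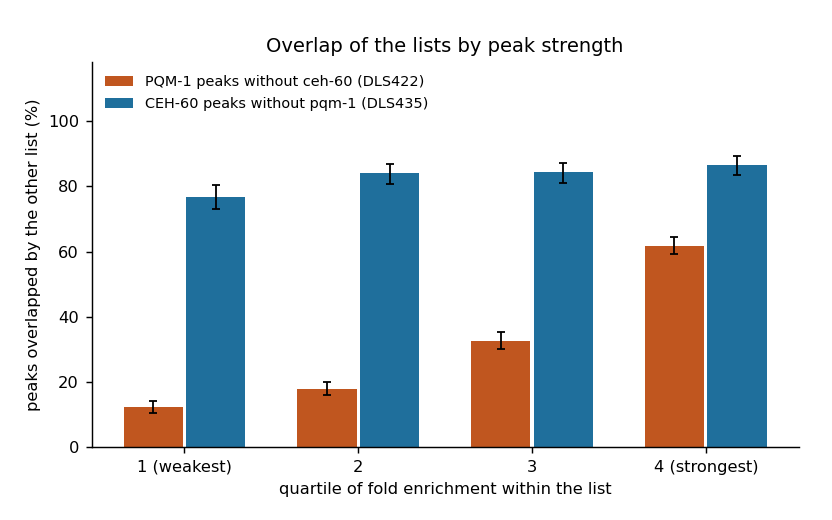
Share of peaks (%, with 95% Wilson intervals) of PQM-1 in DLS422 and of CEH-60 in DLS435 that overlap a peak of the other list, by quartile of fold within each list. The PQM-1 share climbs over the quartiles to 61.8%, and the CEH-60 share lies at 76.8% or above in every quartile.

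At shared sites the 2 proteins peaked close together, though the overlap that defines these sites already limits the distance. No comparison distance was computed. There were 1732 overlapping pairs. From the summit of each of the 1699 shared CEH-60 peaks, the nearest summit of an overlapping PQM-1 peak lay at a median distance of 35 bp. In 60.3% of these peaks it was 50 bp or less, in 77.3% it was 100 bp or less, and in 7.30% it was over 500 bp. The PQM-1 peaks were the wider, with a median of 519.5 bp against 296 bp for the CEH-60 peaks, and the CEH-60 interval lay wholly inside the PQM-1 interval in 69.5% of pairs. A single PQM-1 peak held 2 or more CEH-60 peaks in 138 cases and 5 at most. Over the 1374 pairs with exactly 1 peak on each side, the Spearman correlation of the fold percentiles was 0.36. This is a description across sites that share a library and a genome position. Some long PQM-1 peaks held clusters of CEH-60 peaks, and those with the most are given here. A set of 5 CEH-60 peaks each was held by PQM-1 peaks of 4288 bp (II 6612882 to 6617169, fold 4.42), 4676 bp (IV 8029955 to 8034630, fold 3.91) and 4914 bp (IV 8530468 to 8535381, fold 4.17). A CEH-60 summit in the region of 4676 bp lay at an end of nhr-31, a nuclear receptor gene, and the PQM-1 summit lay at no gene end. At ets-4, an ETS factor gene, a PQM-1 peak of 2585 bp (fold 3.32) spanned 4 CEH-60 peaks and both proteins had a summit at the gene end.

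**Figure D2:**
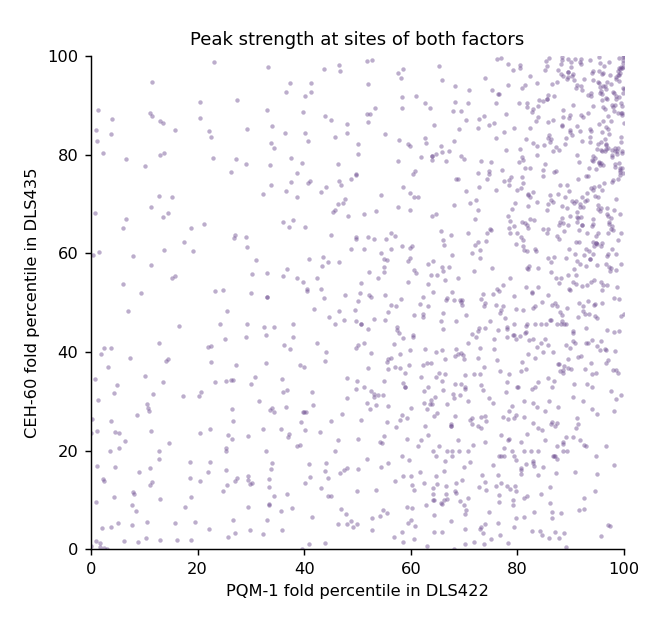
Fold percentile within the PQM-1 list of DLS422 (x axis) and within the CEH-60 list of DLS435 (y axis) at the 1374 sites with 1 peak of each list, a point for each site. The points spread widely, with a Spearman correlation of 0.36.

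The strongest shared sites lay by genes of unlike function. The site at srz-62, of a chemoreceptor family, had a fold of 5.59 for PQM-1 in DLS422 and 4.23 for CEH-60 in DLS435 (IV 3899678 to 3900431). The same site had 6.65 for PQM-1 in OP201 and 5.15 for CEH-60 replicate 2 in intact animals. In the lists of longer crosslinking the fold there was 15.1 (CEH-60 replicate 1), 9.71 (mIgG1), 21.4 (DLS396, CEH-60) and 6.26 (UNC-62). Every list thus had a peak at srz-62. At pgp-1, a P-glycoprotein gene of the intestine, the fold was 4.68 for PQM-1 in DLS422 and 3.49 for CEH-60 in DLS435 (IV 12599062 to 12599580). Intact animals had 5.09 for PQM-1 in OP201 and 3.94 for CEH-60 replicate 2 there. At dgat-2, which encodes a diacylglycerol acyltransferase of triglyceride synthesis, the fold was 4.31 for PQM-1 in DLS422 and 3.31 for CEH-60 in DLS435. The pair pud-2.2 and pud-3, named as proteins upregulated in daf-2 mutants, shared a site with 4.42 for PQM-1 and 3.36 for CEH-60. The pair spsp-1 and scav-6, of which scav-6 belongs to the scavenger receptors, had 5.14 for PQM-1 and 3.40 for CEH-60. The other leading sites of this class were at C52E2.2, B0507.3, Y75B8A.28, F16G10.6, and gcy-18 with clec-186, a guanylyl cyclase and a C-type lectin gene. Their folds ran between 3.73 and 5.15 for PQM-1 and between 3.23 and 4.17 for CEH-60. The tagged gene ceh-60 had a shared site beside it too, with 2.89 for PQM-1 in DLS422 and 3.59 for CEH-60 in DLS435 (X 6530519 to 6530979 in the CEH-60 list).

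Sites with PQM-1 only were weaker and narrower than the shared ones. Their median fold was 2.22, against 2.75 for shared PQM-1 peaks, and their median width was 284 bp, against 519.5 bp. A summit outside every protein-coding gene was seen in 54.3% of them and in 61.6% of shared PQM-1 peaks. The shares at a gene end were close, 49.1% and 48.8%. On the X chromosome lay 23.3% of PQM-1-only peaks, 30.8% of shared PQM-1 peaks and 37.2% of CEH-60-only peaks. By chromosome, the shared part of the PQM-1 peaks ran between 26.4% on I and 37.4% on X. The shared part of the CEH-60 peaks ran between 79.3% on III and 90.2% on II.

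The leading PQM-1-only sites also lay by genes of unlike function. At srh-166, of a chemoreceptor family, and its neighbour Y38H6C.24, the fold was 4.16 in DLS422, 3.81 for PQM-1 in OP201 and 2.29 for CEH-60 replicate 2 in intact animals (V 20525931 to 20526473). That site also had 5.30 in CEH-60 replicate 1 and 6.16 in the DLS396 list of CEH-60. The mIgG1 and UNC-62 lists had no peak at it. At scc-2, the cohesin loader, the fold was 3.9 in DLS422 and 3.81 in OP201, and CEH-60 replicate 2 had no peak (II 240098 to 240415). At inx-15 and inx-16, gap junction innexins of the intestine, it was 3.81 in DLS422 and 3.78 in OP201, and CEH-60 replicate 2 had 2.86. All 10 of these sites had PQM-1 peaks in OP201, and 7 of 10 had a peak in CEH-60 replicate 2. The remaining 7 lay at M176.9 with arrd-3, ZK1240.6 with ZK1240.2, Y75B8A.39, F58B4.5, fbxa-134 with F47H4.2, T16G1.7 with T16G1.6, and C49C3.9 with C49C3.21, with folds of 3.81 to 4.07 in DLS422. PQM-1-only peaks also recurred along some long genes. The MAP kinase phosphatase gene vhp-1 held 11 of them, mob-2 had 9, flcn-1 (folliculin) and tir-1 (an adaptor upstream of p38 signalling) had 8 each, and hlh-30 (the TFEB factor of autophagy) and jun-1 (an AP-1 subunit) had 7 each. These genes were named after their values were seen.

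Sites with CEH-60 only were few, and they included the yolk genes. Every vitellogenin gene, from vit-1 to vit-6, had a CEH-60 summit at an end in DLS435, 6 of 6, against 5.44% of all protein-coding genes. None of the 6 had a PQM-1 summit at an end in DLS422, against 13.4% of all protein-coding genes. The strongest was at vit-5, with a fold of 3.69 and rank 15 of 2048 (X 3403029 to 3403647). The others were weaker in rank, with 2.51 (rank 579) at vit-1, 2.23 (rank 1146) at vit-2, 2.02 (rank 1600) at vit-3, 2.53 (rank 565) at vit-4 and 2.56 (rank 530) at vit-6. The yolk genes thus spread over most of the DLS435 list and were not all among its strongest sites. The nearest PQM-1 peak of DLS422 lay 909 bp from vit-4, 1802 bp from vit-1, 2906 bp from vit-2 and 3531 bp from vit-3. At vit-6 and vit-5 it was much farther off, 35445 bp and 63662 bp. In intact animals the same CEH-60 intervals overlapped PQM-1 peaks of OP201 at all 6 genes, with folds of 2.13 at vit-3 to 3.03 at vit-5, and CEH-60 replicate 2 had 2.66 at vit-3 to 4.15 at vit-5. At vit-6 the OP201 peak was a single interval of 6843 bp over the whole gene. UNC-62 peaks lay there too, at 9.19 (vit-4) to 13.3 (vit-2). Since vit-3, vit-4 and vit-5 have nearly the same sequence, reads of these copies may not be told apart, and they do not count as separate loci.

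**Figure D3:**
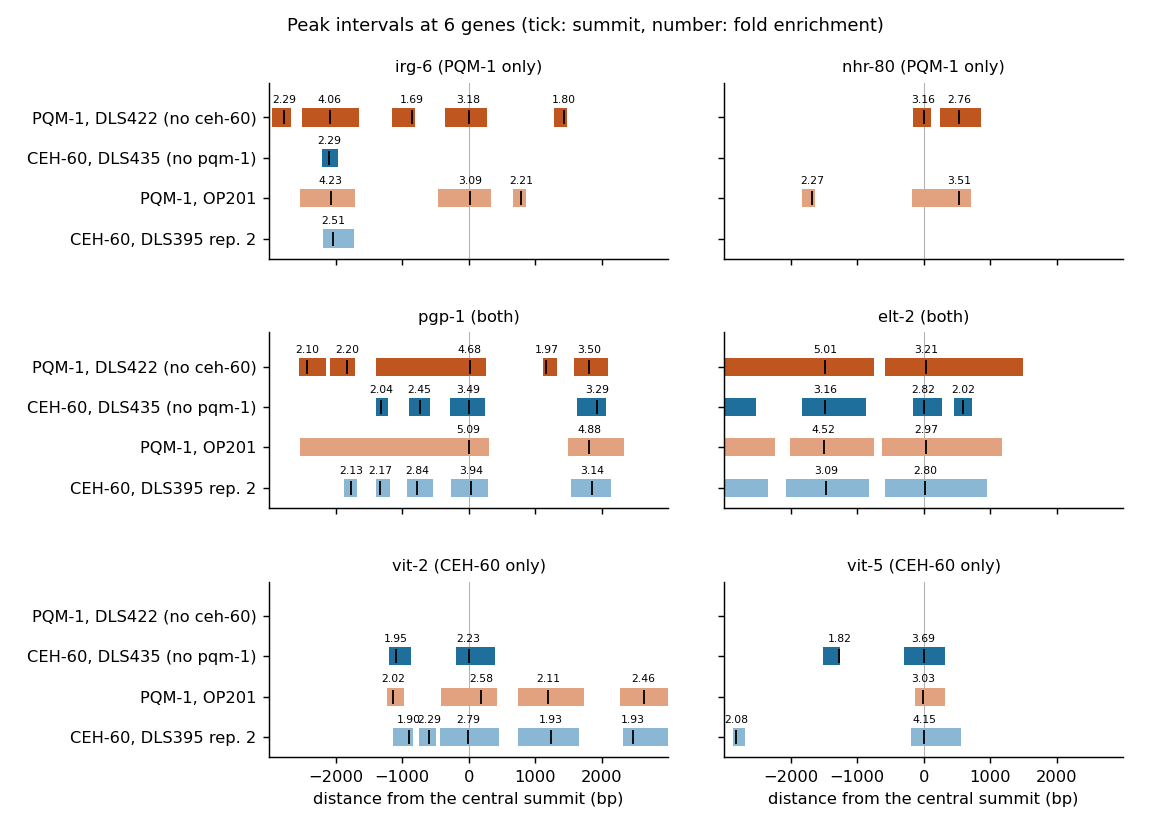
Peak intervals (bars), summits (ticks) and fold enrichment (numbers) around a central summit at 6 genes, in PQM-1 without ceh-60 (DLS422), CEH-60 without pqm-1 (DLS435), PQM-1 in OP201 and CEH-60 in DLS395 replicate 2. At vit-2 and vit-5 the DLS422 row is empty while the other rows have peaks, at nhr-80 only PQM-1 rows have peaks, and at irg-6 a shared site lies beside the PQM-1-only site.

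CEH-60 peaks without PQM-1 also repeated along a few genes. They numbered 6 over vit-6 (IV 8260859 to 8265323), with folds of 1.83 to 2.56, 4 over tra-1, a regulator of sex determination, and 3 each over vit-1, ndg-4 and nhr-76. At ndg-4, whose family is known from resistance to fluoxetine, the fold in DLS435 was 3.12, and at mstr-2, its neighbour, it was 3.36. At dhs-26, a short-chain dehydrogenase gene, the fold was 3.30 in DLS435, with 2.75 for PQM-1 in OP201 and 4.7 for CEH-60 replicate 2 (X 3362336 to 3362909). At mau-2, which encodes the partner of the cohesin loader SCC-2, it was 2.99, with 2.72 for PQM-1 in OP201 and 3.91 for CEH-60 replicate 2. The rest of the 10 leading sites were at vit-5, Y40H7A.10 (3.40), calu-1 (3.25), lron-7 (3.19), R08A2.2 with fbxa-147 (3.05), and the esterase gene cest-10 with clec-179 (3.01). All 10 had a peak of PQM-1 in OP201, of CEH-60 replicate 2 and of UNC-62. Over the whole class, CEH-60-only peaks had a median fold of 2.22 and a median width of 238 bp, against 2.30 and 296 bp for shared CEH-60 peaks. Their summits lay outside protein-coding genes in 45.3%, against 59.98%, and at a gene end in 35.8%, against 47.6%.

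The 3 classes differed in what the other 6 lists held there. A PQM-1 peak of OP201 was present at 76.6% of PQM-1-only peaks and 98.7% of shared PQM-1 peaks, against 83.4% of all DLS422 peaks. A CEH-60 peak of replicate 2 was present at 27.7% of PQM-1-only peaks and 94.0% of shared PQM-1 peaks, against 48.4% of all DLS422 peaks. The CEH-60 lists of longer crosslinking differed in this. CEH-60 replicate 1 had a peak at 72.2% of PQM-1-only peaks, against 80.5% of all DLS422 peaks. CEH-60 in DLS396 had 71.8%, against 80.1%, and the mIgG1 list had 25.4%, against 44.3%. Most PQM-1-only peaks thus had a CEH-60 peak in CEH-60 replicate 1 and in DLS396. Those are also the longest lists of the series, with 9008 and 8991 nuclear peaks. The mIgG1 list has 4429, CEH-60 replicate 2 has 3430 and UNC-62 has 2051. The part of list length in these shares was not tested. CEH-60-only peaks had a CEH-60 peak of replicate 2 in 86%, and shared CEH-60 peaks in 93.6%, against 92.3% of all DLS435 peaks. They had a PQM-1 peak of OP201 in 56.7%, and shared CEH-60 peaks in 98.6%, against 91.5% of all. Of the 3458 PQM-1-only peaks, 1730 had the OP201 peak and no peak of CEH-60 replicate 2, 918 had both, 41 had the CEH-60 peak alone and 769 had neither. On the other side, 198 of the 349 CEH-60-only sites had PQM-1 in intact animals, and 184 of them also had CEH-60 replicate 2 there. A further 116 had CEH-60 replicate 2 without PQM-1 in OP201, and 35 had neither. These shares differed with fold. The OP201 share of CEH-60-only peaks was 44.5% in the weakest quartile of the DLS435 list and 71.0% in the strongest. The CEH-60 replicate 2 share of PQM-1-only peaks was 15.4% in the weakest quartile of the DLS422 list and 59.7% in the strongest.

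UNC-62 went with the CEH-60 sites. Its peaks lay at 10.4% of PQM-1-only peaks and at 65.6% of shared PQM-1 peaks, against 27.5% of all DLS422 peaks. They lay at 63.9% of CEH-60-only peaks and at 62.1% of shared CEH-60 peaks, against 62.4% of all DLS435 peaks. Taken as whole classes, CEH-60 sites with and without PQM-1 thus had UNC-62 about as often. From the weakest to the strongest fold quartile of DLS435, UNC-62 was at 38.7%, 69.1%, 72.5% and 91.3% of CEH-60-only peaks. At shared CEH-60 peaks UNC-62 had 39.7%, 49.4%, 68.4% and 87.9%. Among CEH-60-only sites it was at 73.7% of those with a PQM-1 peak in OP201 (146 of 198) and 51.0% of those without (77 sites). Among PQM-1-only sites it was at 26.2% of those with a peak of CEH-60 replicate 2 (251 of 959) and 4.32% of those without (108 of 2499). In CEH-60 replicate 1 the median fold percentile of the overlapping peak was 92.8 at CEH-60-only sites and 86.9 at shared ones, in the UNC-62 list it was 78.1 and 58.0, and in the OP201 PQM-1 list 47 and 82.3. In CEH-60 replicate 2, the intact list of the same protocol, it was 68.3 at CEH-60-only sites and 70.3 at shared ones. In the mIgG1 list it was 89.3 at CEH-60-only sites and 65.3 at shared ones, and in the DLS396 CEH-60 list 93.8 and 85.7. CEH-60-only sites therefore ranked higher than shared ones in the UNC-62 list and in every CEH-60 list of the longer crosslinking. They ranked lower in the OP201 PQM-1 list and, by median fold, in DLS435 itself, and slightly lower in CEH-60 replicate 2. No peak of any of the 5 CEH-60 lists lay at 831 of the 3458 PQM-1-only sites (24%), and all 8 lists had a peak at 1026 of the 1699 shared CEH-60 peaks (60.4%). The UNC-62 list and 3 of the CEH-60 lists came from the longer crosslinking, and the lists differ in length. The part of either in these shares was not tested.

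**Figure D4:**
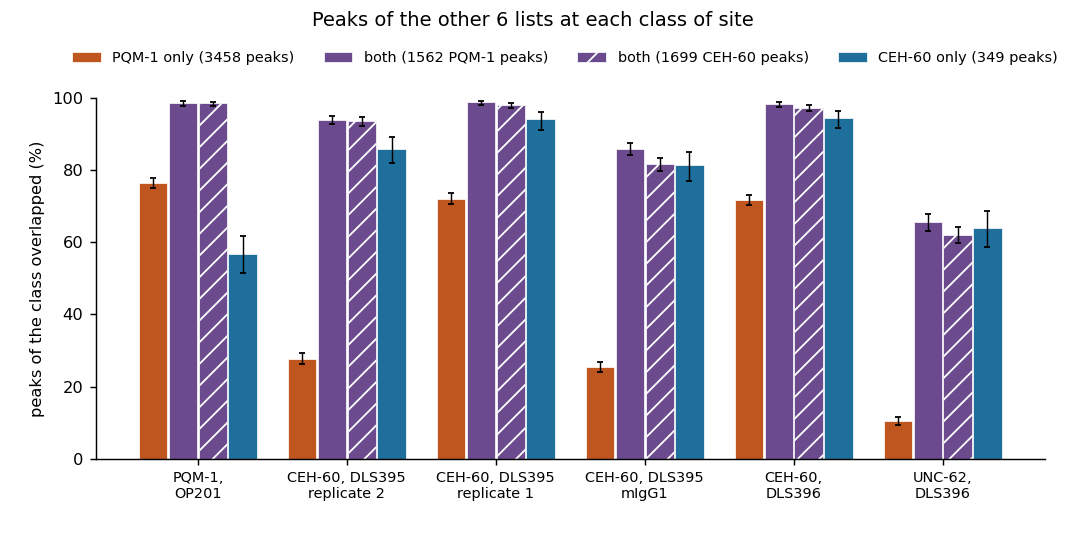
Share of peaks (%, with 95% Wilson intervals) of each class that a peak of each of the other 6 lists overlaps. PQM-1-only peaks stand lowest for UNC-62 (10.4%), CEH-60 with mIgG1 (25.4%) and CEH-60 replicate 2 (27.7%), and CEH-60-only peaks stand lowest for PQM-1 in OP201 (56.7%). CEH-60 replicate 1 and CEH-60 in DLS396 overlap 72.2% and 71.8% of PQM-1-only peaks, and are also the longest lists (9008 and 8991 peaks, against 2051 for UNC-62).

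By gene, PQM-1 alone bound many more genes than CEH-60 alone. Bound genes are those with a summit at either end, in the stretch that reaches 1000 bp out of the gene and 200 bp into it. Of 19971 protein-coding genes, 1731 (8.67%) had PQM-1 only, 948 (4.75%) had both and 139 (0.696%) had CEH-60 only. Of the 948, 927 had both through overlapping peaks and 21 through separate ones. Of the 139 genes with CEH-60 only, 28 had a CEH-60 peak that did overlap a PQM-1 peak with its summit away from the gene end, such as nhr-31, ifb-2 and clec-84. The other 111 had none. Of the 139, 84 were bound by PQM-1 in OP201 and 123 by CEH-60 replicate 2. Of the 1731 genes with PQM-1 only, 612 were bound by CEH-60 replicate 2 in intact animals. In 20 of the 1731, a PQM-1 peak at the gene end overlapped a CEH-60 peak of DLS435 with its summit elsewhere. Over all genes PQM-1 only is thus the most frequent of the 3 classes and CEH-60 only the rarest, and the lists that follow are to be read against that: 8.67% PQM-1 only, 4.75% both and 0.696% CEH-60 only. No list was tested against all genes.

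Protease, lysozyme and saposin genes had both proteins more often than PQM-1 alone. Among 19 intestinal proteases, 12 had both, 4 had PQM-1 only and 0 had CEH-60 only. The cathepsin B genes cpr-3 (fold 4.88 for PQM-1, 2.89 for CEH-60) and cpr-4 (4.10 for PQM-1, 2.95 for CEH-60) led, and asp-4, a cathepsin D gene, had 3.17 for PQM-1 and 3.20 for CEH-60. Among 22 lysozyme and saposin genes, 11 had both, 4 had PQM-1 only and 1, spp-4, had CEH-60 only, through a CEH-60 peak that overlaps a PQM-1 peak with its summit elsewhere. The lysozyme genes lys-2 and lys-3 shared a site with 4.22 for PQM-1 and 2.69 for CEH-60, and lys-8 had 4.05 for PQM-1 and 2.42 for CEH-60. Against these, lys-7, a lysozyme gene of the pathogen response, had PQM-1 only, with 2.09.

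Among 21 other immune effectors, 6 had both, 7 had PQM-1 only and 0 had CEH-60 only. The infection response genes split: irg-4 (4.37 for PQM-1, 3.14 for CEH-60), irg-8, irg-7 and irg-2 had both, while irg-6 (3.18) and irg-5 (2.81) had PQM-1 only. Among the 16 p38 and immune regulators, elt-2 and fshr-1, a receptor of innate immunity, had both, and pmk-1 (the p38 kinase, 2.95), sek-1 (its activating kinase, 2.01), vhp-1 and cebp-1 had PQM-1 only. With any overlap of a peak with the gene or 1000 bp beside it counted, 8 of the 16 had both and 3 had PQM-1 only. Among the 10 dod genes, whose name stands for downstream of DAF-16, 4 had both and 4 had PQM-1 only. The peak at dod-21 was the strongest of the DLS422 list (5.69), with a CEH-60 peak of 2.26 that ranked 1070 in DLS435. At dod-23 the order was the other way, with PQM-1 at 2.16 (rank 3353) and CEH-60 at 3.40 (rank 47).

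Genes of fat metabolism had mostly PQM-1 only or both, which is also the order over all genes (8.67% PQM-1 only, 4.75% both, 0.696% CEH-60 only). Among 16 desaturases and elongases, 6 had both and 6 had PQM-1 only, and with 500 bp in place of 1000 bp outside the gene, 3 had both and 7 had PQM-1 only. The desaturase genes fat-2 (2.83 for PQM-1, 3.10 for CEH-60), fat-7 (3.60 for PQM-1, 2.72 for CEH-60) and the neighbours fat-3 and fat-4 had both, as did elo-1 and elo-5. The elongase genes elo-2 (3.23), elo-9 and elo-6 had PQM-1 only, as did fat-1 (2.77) and fat-6 (2.22). Among 28 genes of fatty acid oxidation, 9 had PQM-1 only, 1 had both and 1 had CEH-60 only. The neighbouring genes ech-8 and ech-9, of enoyl-CoA hydratases, shared a PQM-1 peak of 3.57, and daf-22, a thiolase of ascaroside synthesis, had 2.49. Both genes with CEH-60, acox-1.1 and acox-1.2, which encode acyl-CoA oxidases, lay beside the same CEH-60 peak of 2.34. Among 14 lipases, 6 had PQM-1 only and 2 had both. The triglyceride lipase gene atgl-1 (2.00) and lipl-1 (3.12) had PQM-1 only, and lipl-5 (3.27 for PQM-1, 2.33 for CEH-60) and hosl-1 had both. Among 13 fat regulators, 5 had PQM-1 only, with the nuclear receptor genes nhr-80 (3.16) and nhr-49 (1.89) and the Mediator subunit gene mdt-15 (1.83), and 3 had both, with sbp-1, the SREBP factor (2.56 for PQM-1, 2.42 for CEH-60). Lipid binding proteins gave 3 PQM-1 only, 2 both and 2 CEH-60 only of 11. With CEH-60 only were vit-2 and lbp-8, a lysosomal lipid chaperone gene whose CEH-60 peak overlaps a PQM-1 peak with its summit elsewhere.

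Among 16 yolk regulators, 7 had PQM-1 only and 2, elt-2 and ceh-60, had both at their ends. That made 9 with PQM-1 and 2 with CEH-60, beside 13.4% and 5.44% of all genes, and the order depends on the rule. With any overlap of the gene or 1000 bp beside it, 3 had PQM-1 only, 6 had both and 1 had CEH-60 only. The intestinal GATA factor gene elt-2 had 3.21 for PQM-1 and 2.82 for CEH-60. With PQM-1 only were daf-16 (2.88), the FOXO factor, sma-3 (2.95), a Smad of BMP signalling, sgk-1 (2.39), a kinase downstream of TORC2, mab-3, tra-1, unc-62 (2.40) and pqm-1 itself. Along its length tra-1 also held 4 CEH-60 peaks without PQM-1, away from its ends. At mab-3 a PQM-1 peak overlapped a CEH-60 peak of DLS435 with its summit elsewhere, and 1 CEH-60 peak of DLS435 lay over unc-62 (1.73), its summit away from the ends. The peak at pqm-1 covers the gene that wgIs201 carries, and reads of the transgene and of the gene cannot be told apart. Among 17 genes of insulin and TORC2 signalling, 4 had PQM-1 only, akt-1 and ist-1 among them, and 2 had both, ins-7 (2.45 for PQM-1, 3.18 for CEH-60) and ins-1 (3.37 for PQM-1, 2.18 for CEH-60). Both encode insulin-like peptides. Among 24 DAF-16 class genes, 3 had PQM-1 only, 5 had both and 2, vit-2 and vit-5, had CEH-60 only. Among 19 stress transcription factors, 5 had PQM-1 only and 3 had both, egl-27, nhr-8 and xbp-1, and with any overlap 4 had PQM-1 only and 8 had both. Chaperones gave 3 of 20 bound by PQM-1 and 2 by CEH-60, beside 13.4% and 5.44% of all genes.

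The lists of cell types ran as follows. Of 15 intestine markers, 10 had PQM-1 and 8 had CEH-60, with 7 bound by both, such as the brush border actin act-5, the peptide transporter pept-1 and the proton pump subunit vha-6. The intestinal intermediate filament gene ifb-2 had CEH-60 only at its ends, under a PQM-1 peak with its summit elsewhere. Brush border and transport genes, some of them in the intestine list too, gave 4 PQM-1 only, 6 both and 1 CEH-60 only of 17. Muscle, neuron, germline and hypodermis markers, 54 genes in all, gave 4 with PQM-1 and 3 with CEH-60: mup-2, egl-21 and elt-3 had PQM-1 only, unc-60 and glh-1 had CEH-60 only and tph-1 had both. The CEH-60 peak at glh-1 overlaps a PQM-1 peak with its summit elsewhere. Both proteins were thus at more of the intestine markers (66.7% with PQM-1, 53.3% with CEH-60) than of the markers of the other tissues. Over all protein-coding genes the shares were 13.4% and 5.44%. Muscle, neuron, germline and hypodermis markers had PQM-1 at 8.33%, 12.5%, 0% and 10%. They had CEH-60 at 8.33%, 6.25%, 6.25% and 0%, in the same order, which is around its share over all genes in lists of few members. None of the 6 Hox genes was bound by either.

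**Figure D5:**
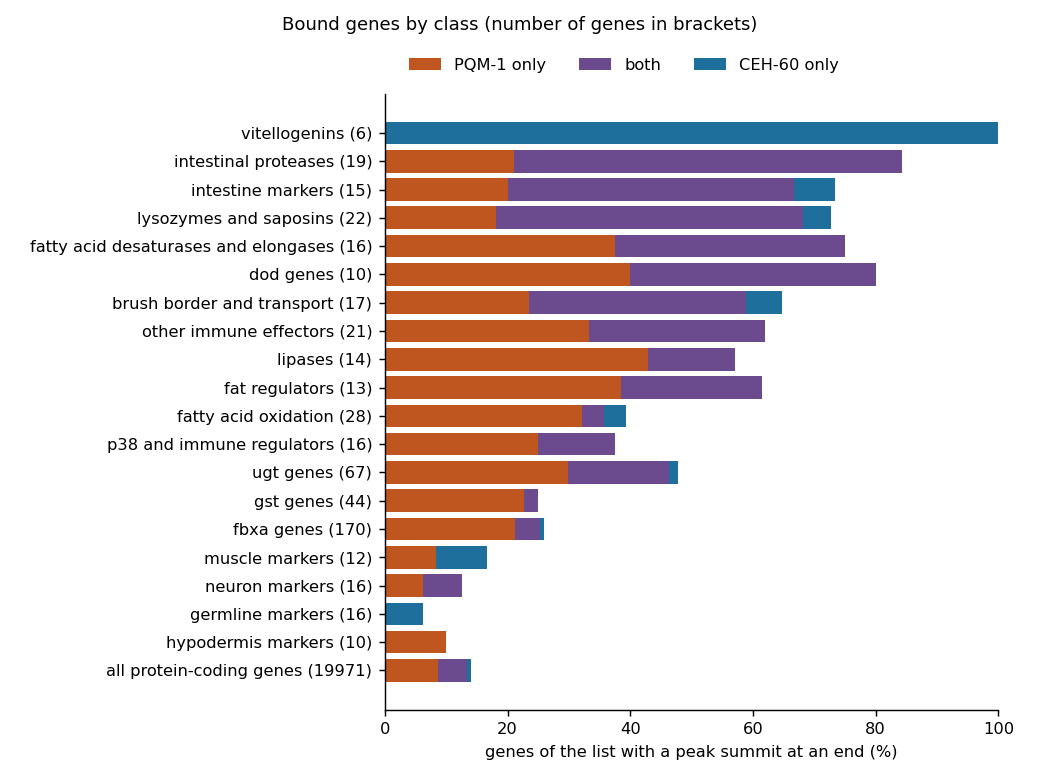
Share of each gene list (%, number of members in brackets) bound by PQM-1 only, by both and by CEH-60 only, above the same for all protein-coding genes. The vitellogenins are the list with every member bound by CEH-60 only. Proteases, lysozymes and saposins, intestine markers, and brush border and transport genes have both more often than either alone.

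Gene families are given beside the shares over all genes, 13.4% with PQM-1 and 5.44% with CEH-60, which already run in 1 direction. Of 67 ugt genes, of UDP-glucuronosyltransferases, 20 had PQM-1 only, 11 both and 1 CEH-60 only. Of 44 gst genes, of glutathione S-transferases, 10 had PQM-1 only, 1 had both and 0 had CEH-60 only. Of 74 cyp genes, of cytochrome P450 enzymes, 12 had PQM-1 only, 4 both and 1 CEH-60 only. Of 239 clec genes, 37 had PQM-1 only, 19 both and 2 CEH-60 only, and of 170 fbxa genes, which encode F-box proteins, 36 had PQM-1 only, 7 both and 1 CEH-60 only. The ttr genes, which encode transthyretin-like proteins, ran otherwise, with 1 PQM-1 only and 9 both of 58. Of 156 collagen genes, 8 (5.13%) had PQM-1 and 5 (3.21%) had CEH-60. The nuclear receptor family (nhr) gave 27 PQM-1 only, 17 both and 2 CEH-60 only of 269, which is 44 with PQM-1 and 19 (7.06%) with CEH-60. Of 38 insulin-like peptide genes (ins), 4 had PQM-1 only and 3 had both, which were ins-1, ins-7 and ins-8. Of 64 ceh homeobox genes, 2 had PQM-1 only and 5 had both. The str chemoreceptor family had both at 5 of 193 genes and PQM-1 alone at 0, and the srh family had 6 PQM-1 only and 6 both of 220. Ribosomal protein genes were bound at few members, 3 of 48 rpl genes by PQM-1 and 2 by CEH-60, and 1 of 30 rps genes by each.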

How the data were processed

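The 8 peak lists were used as deposited, 1 for each immunoprecipitated sample; the 2 inputs were not analysed here, and no library of an untagged strain was used here. Per the submitters' processing notes, the authors used Bowtie2, SAMtools, MACS2 and deepTools, without versions. The genome build, the control for peak calling, whether duplicates were removed and how reads with several matches were placed are not given in the sources that were used, nor is the growth temperature of the 5 min crosslinking protocol. That protocol used Covaris shearing and the ThruPLEX kit, per the labels. In the deposited lists each peak has a score, a fold (a linear ratio of summit signal to local background), a −log10 p-value and a −log10 q-value. The score was not used; no −log10 q in the deposited lists of DLS422 and DLS435 lay under 2.

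Intervals on the 6 nuclear chromosomes were compared in Python (version 3.11.15), pandas (2.3.3), numpy (2.4.6), matplotlib (3.10.9) and scipy (1.17.1), and the overlap code was tested on simulated intervals. Fold quartiles, ranks and percentiles were set within a list. Gene names and neighbours came from a RefSeq table of WBcel235, whose coordinates are not printed; shifting genes against summits in steps of 20 bp placed the best fit at −20 bp (DLS422) and 20 bp (DLS435). The table gives no strand, so both gene ends counted, and no sequence was used. Of 379 list members, 373 were found. Some genes are in several lists, as elt-2 is. The 2 lists, the gene lists and the rules were chosen with earlier results of these data known, and the absence of DLS422 peaks from the vitellogenins was among them. Named were the genes of the 10 strongest peaks of each class with a bound gene (shared peaks by the lower of the within-list percentiles), the vitellogenins, the tagged and deleted genes, and up to 4 members of each gene list and class by fold; further members were named after their values were seen. Alternatives were other definitions of overlap, stricter q-values, list length, peak width and other gene rules.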

Additional observations from a re-analysis of the deposited data

How the results depend on the processing

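No paired analysis was possible because each side has 1 library and no test was run, and leaving out a replicate would leave none. The shared share of DLS422 PQM-1 peaks was 17.6% with overlap of 50% of both peaks, 29.6% with summits within 250 bp, 38.4% within 500 bp, 27.2% at −log10 q of 10 or more and 49.6% among the 1500 strongest. The shared share of DLS435 CEH-60 peaks was 43.1%, 72.4%, 86%, 71.0% and 55.3% under the same settings, 81.2% at −log10 q of 5 or more and 78.0% without peaks over 2000 bp. CEH-60 peaks were the more often shared under each, but this order is tied to list length. With overlap of 50% of both peaks, 882 peaks were shared on either side, of 5020 PQM-1 peaks and of 2048 CEH-60 peaks. Among the 1500 strongest of each list, 744 PQM-1 peaks and 830 CEH-60 peaks were shared. With the classes kept as reported and overlap of 50% of both peaks asked of the other lists, PQM-1-only peaks had OP201 peaks in 59.5%, CEH-60 replicate 2 in 18.3% and UNC-62 in 6.02%. Shared PQM-1 peaks then had 79.8%, 66% and 31.4%, shared CEH-60 peaks 43.6%, 72.7% and 51.1%, and CEH-60-only peaks 37.5%, 69.1% and 51.3%, in that order of lists. The counts of genes by class stayed within 1.5 times under the other gene rules and the stricter q-value, but the genes in a class changed. Of the 139 genes with CEH-60 only, 87 kept that class with a 500 bp gene rule and 95 with any overlap. Most of them kept it at the stricter q-value. All 948 genes with both kept their class with any overlap, and some genes with PQM-1 only left theirs under each setting. Of 75 counts (25 gene lists in 3 classes, counts of 0 included), 21 moved by more with a 500 bp gene rule, 24 with any overlap and 4 at the stricter q-value. All 6 vitellogenins had CEH-60 only under each, except that any overlap gave 5 with CEH-60 only and 1 with both. The rule by gene start and the motif search were not run, since strand and sequence were not used here. Read depth is unknown, so a site with no peak may be bound below detection.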
